A study of Homo sapiens with 60 samples.

Results

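The 30 genes described here are targets of the transcription factor p53, chosen by symbol from general knowledge of the pathway and read from a table of 60675 Ensembl genes in 60 libraries of HepG2, a human hepatocellular carcinoma line. All 30 matched 1 row of the table by symbol, and all 30 were among the 16924 genes tested. The study treated the cells for 24 h with 8 herbal extracts at 3 doses each and sequenced total RNA, and the counts ask here how the p53 pathway reads out under each extract. Yijin-tang and Soshiho-tang, both decoctions of several herbs, were water extracts. Liriopis seu Ophiopogonis Tuber (liriope), Schisandrae Fructus (schisandra), Longan Arillus (longan), Zizyphi Semen (zizyphus), Polygalae Radix (polygala) and Aucklandiae Radix (aucklandia) were ethanol extracts.

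For 6 extracts the low, medium and high doses were 20, 100 and 500 µg/mL, with 3 libraries per dose, or 2 per dose for Soshiho-tang. Polygala was given at 10, 50 and 250 µg/mL and aucklandia at 11.2, 56 and 280 µg/mL, with 1 library per dose. The top dose of these 2 extracts was their IC20, because it lay under 500 µg/mL. What the IC20 inhibited is not stated in the sources used here. The vehicle group has 3 libraries and is labelled 0.1% DMSO, whereas the series text gives 2%. Whether replicates were grown as independent cultures is not in the labels, so the p-values speak of spread among these libraries alone, which may be technical.

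In unstressed cells p53 is kept low by MDM2, a ubiquitin ligase that p53 itself switches on. DNA damage, nucleolar stress and other insults free p53 from MDM2, and it then binds paired decamers near its target genes and raises their transcription. The targets stop the cell cycle (CDKN1A), start apoptosis (BAX, BBC3, PMAIP1), repair DNA (XPC, DDB2), adjust metabolism (TIGAR, SESN1) and damp p53 again (MDM2, PPM1D). Several of them, CDKN1A and GADD45A among them, also answer to other stress factors.

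Promoter letters were available from RefSeq (GRCh38.p14, 250 bases before to 50 after each start site) for 24 of the 30 genes. GADD45A, TNFRSF10B, RRM2B, FBXO22, PHLDA3 and TP53INP1 had no window. A p53 decamer, searched on both strands, was found in 7 of the 36 windows (19.4%) and in 7 of the 24 genes (29.2%), against 6.63% of all 35116 windows and 8.06% of all 27305 genes. The genes were PLK2, SESN1, FAS, DDB2, RPS27L, AEN and FDXR. The 4 runs below are those of DDB2, called in Yijin-tang, of RPS27L, whose call in schisandra rests on 1 library, and of PLK2 and FDXR. PLK2 and FDXR passed no test of high against low dose. Against vehicle PLK2 was called lower in 1 and FDXR in 2 of 18 dose groups. Their differences past 1.5-fold, given below, were between single libraries. Capitals mark the decamer letters. DDB2 holds 2 decamers with 1 base between them, starting 6 bases after the start site (chr11:47214975-47215003, plus strand). The others hold 1 each, at chr5:58460199-58460228 for PLK2, chr15:63157517-63157546 for RPS27L and chr17:74872986-74873015 for FDXR, all on the minus strand. A match is a description of letters and not a measured binding site.
DDB2: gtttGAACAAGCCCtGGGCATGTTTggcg
PLK2: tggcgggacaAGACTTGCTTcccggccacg
RPS27L: ggcctagagcAGACAAGCCCgccccgccgc
FDXR: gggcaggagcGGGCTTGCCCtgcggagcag

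Library totals ran from 20744960 to 37999124 expected counts. Mitochondrially encoded genes took 15.2% to 18.4% of counts in vehicle and 9.50% to 15.9% in the other libraries. All 10 hepatocyte markers, among them ALB and APOB, were present. The fibroblast markers COL1A2, COL3A1, DCN and LUM, the leukocyte markers PTPRC and CD3E and the endothelial marker KDR stayed under 0.5 CPM (counts per 1000000, scaled by the trimmed mean of M-values) in all 60 libraries. The rest of these lists was not at 0. The summed leukocyte markers, nearly all from LYZ with some CD68, lay at 1020 to 1081 CPM in vehicle, 1030 to 1749 in the replicated extracts and 575 and 512 at the top doses of polygala and aucklandia. The summed fibroblast markers lay at 13.2 to 14.4 CPM in vehicle, 6.45 to 18.3 in the replicated extracts and 7.16 and 22.0 at those top doses, and the endothelial markers at 5.00 to 5.92, 4.04 to 6.24, 1.58 and 6.74 CPM. Their part in the results below was not tested. Replicate 1 of low-dose schisandra and replicate 2 of high-dose liriope lay farthest from their groups. Their log2 values differed from those of the rest of the group with an SD of 0.269 and 0.220.

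In vehicle the p53 targets spanned a wide range of levels per transcript length. BAX, the pore-forming protein of the mitochondrial outer membrane, led with 125 ± 7.62 CPM per kilobase (SD, n = 3). MDM2 followed with 93.9 ± 3.68 and CCNG1, cyclin G1, with 62.8 ± 5.17 CPM per kilobase. The vehicle ranges of BAX, MDM2 and CCNG1 did not overlap. CDKN1A, which encodes the cyclin-dependent kinase inhibitor p21, stood at 41.7 ± 1.66 CPM per kilobase. The death receptor gene TNFRSF10B, at 38.4 ± 1.64, and the exonuclease gene AEN, at 38.4 ± 2.51, did not differ beyond their spread. At the low end PLK3 reached 3.35 ± 0.310 and PMAIP1, which encodes the BH3-only protein NOXA, 0.402 ± 0.100 CPM per kilobase. These values depend on the principal transcript taken for each gene, such as 6434 bases for RPS27L.

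**Figure D1:**
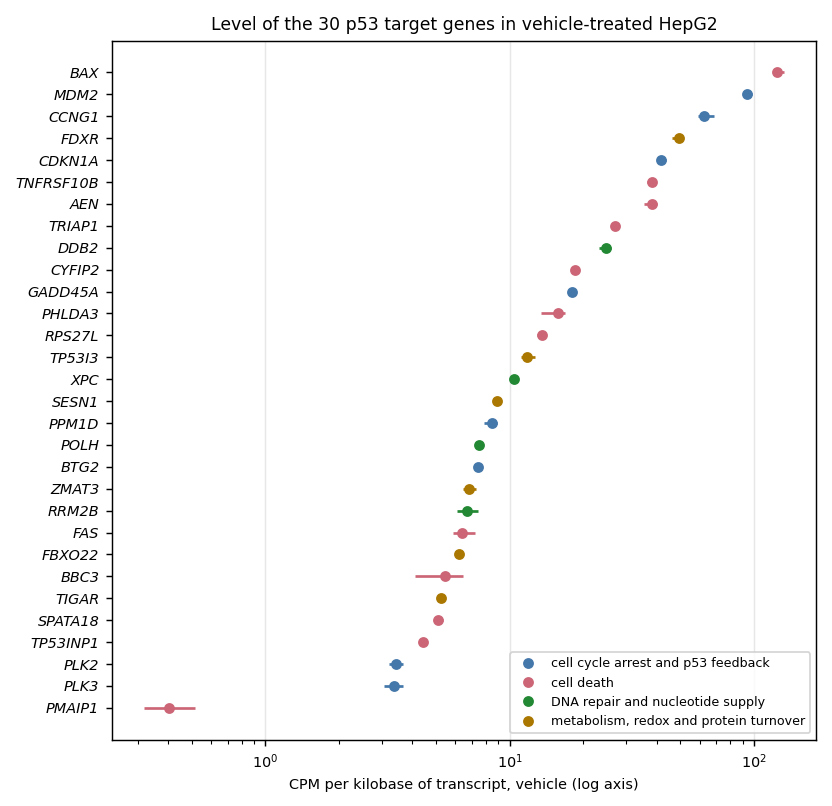
Level of each p53 target gene in the 3 vehicle libraries, in CPM per kilobase of the principal transcript on a log axis, coloured by role. Points are means and lines run from the lowest to the highest library; the genes run from 0.402 for PMAIP1 to 125 for BAX.

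Across the 6 replicated extracts most p53 targets did not pass the test for dose. Of 180 gene-by-extract comparisons of high with low dose, 12 (6.67%) passed an adjusted p of 0.05 in edgeR, against 3.38% of the same comparisons over all genes, and 9 genes passed in at least 1 extract. Only CDKN1A in Soshiho-tang moved by more than 0.5 on the log2 scale. The other 21 genes passed in none, and among them the largest value was -0.44 ± 0.27 (SE, adjusted p = 1) for PMAIP1 in zizyphus. No member passed between medium and low dose, where 0.00591% of all genes did in Yijin-tang and in zizyphus, 0.118% in Soshiho-tang, 0.0709% in schisandra and 0.0% in liriope and longan. At an unadjusted p under 0.05 in edgeR there were 1, 1, 3, 2, 1 and 1 members in that order. The share of all genes under that unadjusted limit was not counted, and no other tool was run on these comparisons. Without the expression filter 1 member, TIGAR, passed as lower in schisandra.

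The 21 genes without a call cover every role. In the arrest and feedback group, GADD45A ranged from -0.10 to 0.11 over the 6 extracts on the log2 scale, PPM1D from -0.10 to 0.08, PLK2 from -0.16 to 0.05, BTG2 from -0.14 to 0.16 and CCNG1 from -0.12 to 0.14. Among the death genes, BAX ranged from -0.02 to 0.06, AEN from -0.05 to 0.02, TNFRSF10B from -0.10 to 0.03, BBC3 from -0.14 to 0.17 and FAS from -0.11 to 0.20. The repair genes XPC, POLH and RRM2B, the ribonucleotide reductase subunit that p53 controls, stayed within -0.17 and 0.15. SESN1, FDXR and TIGAR stayed within -0.20 and 0.20. ZMAT3, an RNA-binding protein gene, PHLDA3, an inhibitor of AKT, TRIAP1 and FBXO22 stayed within -0.14 and 0.09.

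**Figure D2:**
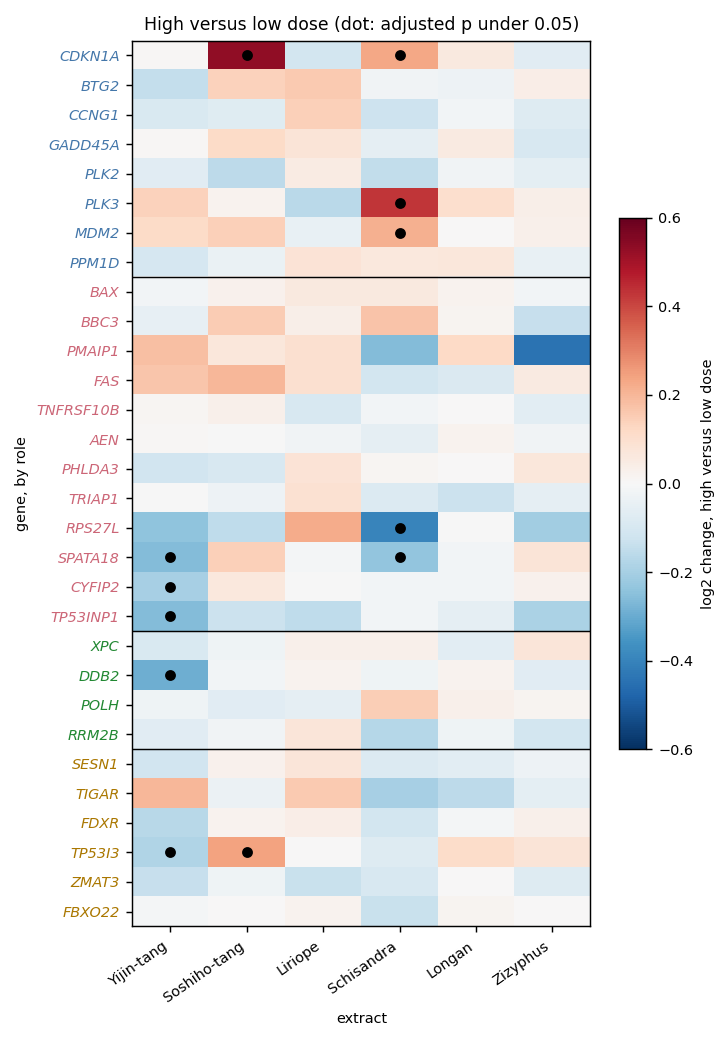
Heat map of the log2 change from low to high dose for 30 p53 target genes (rows, grouped by role) in 6 replicated extracts (columns), with black dots where the adjusted p was under 0.05. The 12 dots fall in Yijin-tang (5), Soshiho-tang (2) and schisandra (5).

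The cell cycle arrest and feedback genes, 8 of the 30 members, were the only role group with rises in schisandra, and CDKN1A led in Soshiho-tang. In Soshiho-tang 2 of 30 members rose and 0 fell, against 5.08% of all genes called in either direction, 2.81% higher and 2.27% lower. The members' median log2 change was 0.01 and that of all genes -0.00160. CDKN1A read 75.0 and 71.5 CPM at low dose, 77.4 and 75.1 at medium dose and 106 and 106 at high dose. Both high-dose libraries lay above all other replicated libraries of the series, and the change was 0.53 ± 0.075 on the log2 scale, a 1.44-fold rise (adjusted p = 1.80e-06). TP53I3, an oxidoreductase gene also known as PIG3, read 24.0 and 25.4 CPM at low dose and 28.4 and 30.3 at high dose. It rose by 0.24 ± 0.068 (adjusted p = 0.0216), but the call was lost in 3 of 4 fits without 1 library (adjusted p of 0.0385 to 0.289), without the expression filter (0.197), with library-size scaling (0.108) and with own libraries and vehicle only (0.0877). The fits without 1 library leave 1 library in an arm, which is then assumed to vary like the other groups. MDM2 stood at 232 and 234 CPM at low dose and at 267 and 250 CPM at high dose, a log2 change of 0.14 ± 0.076 that did not pass (adjusted p = 0.391).

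In schisandra 3 members rose and 2 fell, against 7.33% of all genes called, 3.92% higher and 3.4% lower. The median over the members was -0.05, and over all genes -0.00579. PLK3, a Polo-like kinase of the stress response, read 9.68, 10.1 and 9.32 CPM at low dose, 9.59, 10.6 and 9.06 at medium dose and 13.3, 13.1 and 12.5 at high dose. The high-dose libraries did not overlap those of either lower dose, and PLK3 rose by 0.43 ± 0.088 (adjusted p = 0.000998). CDKN1A read 71.6, 73.0 and 73.7 CPM at low dose and 87.6, 89.5 and 78.2 at high dose, a rise of 0.23 ± 0.062 (adjusted p = 0.0124). All of these libraries lay below those of vehicle, which read 91.6, 98.7 and 93.0 CPM. High dose was not called against vehicle for CDKN1A. MDM2 went from 224, 230 and 230 CPM to 262, 270 and 259 CPM, a rise of 0.21 ± 0.062 (adjusted p = 0.0259). The low- and high-dose libraries overlapped for neither gene. Without replicate 1 of low dose the adjusted p became 0.0769 for CDKN1A and 0.126 for MDM2. Without replicate 1 or 2 of high dose it became 0.0688 and 0.0972 for CDKN1A and 0.0619 and 0.103 for MDM2. With library-size scaling the MDM2 change also did not pass (adjusted p = 0.136). Over all fits without 1 library the adjusted p ran from 0.00444 to 0.0972 and from 0.0354 to 0.126. For CDKN1A it was also 0.0702 without the 2 farthest libraries and 0.0714 with own libraries and vehicle only.

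The 2 members that fell in schisandra belong to the cell death group, which holds 12 of the 30 members. SPATA18 encodes a protein of mitochondrial quality control. It read 24.5, 21.7 and 21.3 CPM at low dose and 18.9, 19.2 and 19.1 at high dose, a change of -0.24 ± 0.058 (adjusted p = 0.00544). Every high-dose library lay below every low-dose library, though the adjusted p was 0.125 without replicate 1 of low dose (0.00295 to 0.125 over the fits without 1 library), 0.117 without the 2 farthest libraries and 0.115 with own libraries and vehicle only. RPS27L encodes a ribosomal protein close to RPS27, and reads of the pair may be shared. It read 131, 86.5 and 82.9 CPM at low dose and 75.9, 74.2 and 77.6 at high dose. Only the library that stood apart reached 131 CPM, and the change of -0.40 ± 0.12 (adjusted p = 0.0283) became -0.16 without it (adjusted p = 0.596). The call also ended without any 1 of the 3 high-dose libraries (adjusted p of 0.0667 to 0.0956) and with own libraries and vehicle only (0.119).

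In Yijin-tang all 5 members that passed fell, against 7.79% of all genes called in either direction, 3.78% higher and 4.01% lower. The median over the 30 members was -0.07 and over all genes -0.00281. Of the 30 members 9 lay above 0, against 49.0% of all genes. Schisandra also had 9 of 30 above 0, against 48.5% of all genes. The members above 0 were 16 in Soshiho-tang, 20 in liriope, 16 in longan and 12 in zizyphus. DDB2, the damage sensor of nucleotide excision repair whose promoter run is printed above, read 48.4, 48.8 and 49.3 CPM at low dose. At medium dose it read 45.4, 46.9 and 46.6 CPM and at high dose 39.4, 39.4 and 41.1 CPM. The 3 doses did not overlap, and DDB2 fell by 0.29 on the log2 scale (SE 0.042, adjusted p = 2.39e-06). Every fit tried kept this call, with adjusted p up to 0.00129.

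Of the other 4 falls in Yijin-tang, 3 were in the cell death group, which holds 12 of the 30 members. SPATA18 went from 23.1, 20.4 and 20.4 CPM at low dose to 17.8, 18.4 and 17.3 CPM, a change of -0.26 ± 0.059 (adjusted p = 0.00233). TP53INP1, which encodes an autophagy and stress protein, went from 32.0, 29.1 and 28.2 CPM to 27.2, 24.8 and 22.9 CPM, a change of -0.26 ± 0.074 (adjusted p = 0.0197). CYFIP2, which encodes a subunit of the actin-regulating WAVE complex, went from 73.1, 71.0 and 70.3 CPM to 62.3, 61.3 and 63.5 CPM, a change of -0.20 ± 0.052 (adjusted p = 0.00959). TP53I3 went from 26.6, 27.3 and 28.3 CPM to 23.5, 24.4 and 24.9 CPM, a change of -0.18 ± 0.055 (adjusted p = 0.0341). For these 4 genes the low- and high-dose libraries did not overlap. In vehicle the mean was 25.0 CPM for TP53INP1, 23.5 for TP53I3, 22.5 for SPATA18, 78.6 for CYFIP2 and 46.3 for DDB2. Against vehicle the high dose was called lower for SPATA18, CYFIP2 and DDB2, but for DDB2 not with library-size scaling. TP53INP1 and TP53I3 were not called between high dose and vehicle. The 4 calls of high against low dose were less firm than that of DDB2. Without replicate 1 of low dose the adjusted p was 0.0506 for SPATA18, 0.0531 for CYFIP2 and 0.150 for TP53INP1. Without replicate 2 of high dose it was 0.0553 for CYFIP2 and 0.0723 for TP53INP1, and without replicate 3 of high dose 0.159 for TP53INP1. TP53I3 lost its call without 5 of the 6 libraries in turn (all but replicate 1 of low dose), with adjusted p of 0.0394 to 0.160, and with own libraries and vehicle only (0.0558). Without the expression filter the adjusted p was 0.337 for TP53I3, 0.0731 for CYFIP2 and 0.0604 for SPATA18. CDKN1A did not follow: it read 81.2, 82.4 and 81.1 CPM at low dose and 85.1, 84.0 and 77.8 at high dose, a log2 change of 0.01 ± 0.062 (adjusted p = 0.972).

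**Figure D3:**
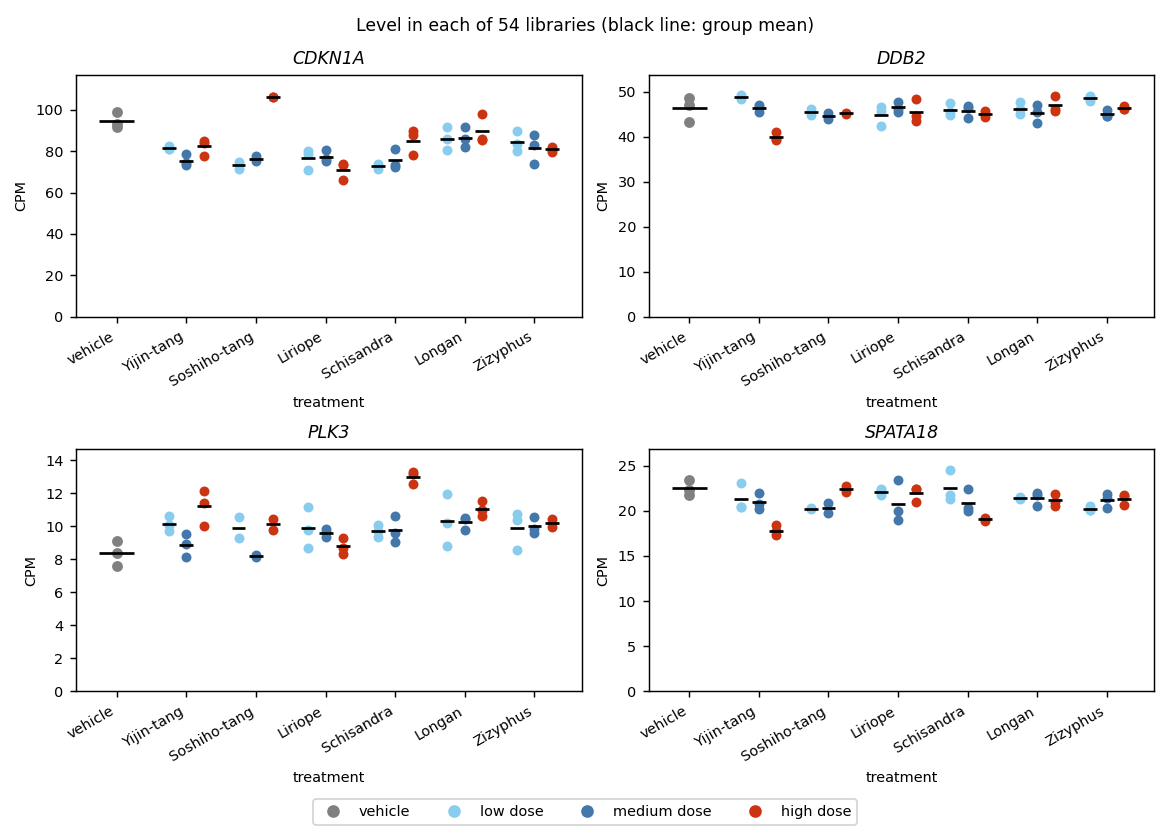
CPM of CDKN1A, DDB2, PLK3 and SPATA18 in each of 54 libraries, by treatment on the horizontal axis and by dose in colour, with black lines at group means. CDKN1A at high-dose Soshiho-tang (106 and 106 CPM), DDB2 at high-dose Yijin-tang (39.4 to 41.1 CPM) and PLK3 at high-dose schisandra (12.5 to 13.3 CPM) stand clear of the lower doses of the same extract.

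Liriope, longan and zizyphus gave no called member, where 0.0295%, 0.0177% and 0.0355% of all genes were called by edgeR. DESeq2 also called 0 members in each. At an unadjusted p under 0.05 in edgeR there were 4, 2 and 1 members. The share of all genes under that unadjusted limit was not counted, so these numbers are not read as particular to the members. In liriope the 4 were BTG2 (0.16), CCNG1 (0.14), TNFRSF10B (-0.10) and TP53INP1 (-0.15 on the log2 scale). The members' medians were 0.04, 0.00199 and -0.04, and those of all genes 0.00567, -0.000285 and 0.000562.

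Whether the dose response differed between extracts was tested directly. Over the 6 replicated extracts 5 members had a high versus low change that differed, against 5.52% of all genes. The adjusted p was 4.29e-05 for CDKN1A, 0.00124 for DDB2, 0.00259 for SPATA18, 0.0071 for TP53I3 and 0.0382 for PLK3. Without the expression filter it was 0.189 for DDB2 and 0.0929 for TP53I3. The PLK3 call was lost without the filter (0.0673), without the 2 farthest libraries (0.0722) and without 1 of 11 libraries, all of Soshiho-tang, liriope or schisandra, with adjusted p of 0.0134 to 0.101 over all such fits. The libraries were replicate 2 of low- and high-dose Soshiho-tang, replicates 1 and 3 of high-dose and 1 and 2 of low-dose liriope, and all of schisandra but replicate 2 of low dose.

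Pairs of extracts located these differences, with 15 pairs tested and p adjusted over all genes within each pair. For CDKN1A the change in Soshiho-tang exceeded that in liriope by 0.64 ± 0.098 on the log2 scale, in zizyphus by 0.60 ± 0.097 and in longan by 0.47 ± 0.097. The adjusted p values were 1.36e-05, 6.63e-05 and 0.00185. It exceeded that in Yijin-tang as well, with a difference of Yijin-tang minus Soshiho-tang of -0.52 ± 0.097 (adjusted p = 0.00136). Against schisandra the difference of 0.30 ± 0.097 did not pass (adjusted p = 0.146). The DDB2 change in Yijin-tang lay below that in each of the other 5 extracts, with differences of -0.22 to -0.32 with adjusted p from 0.000560 to 0.0367. SPATA18 in Yijin-tang differed from Soshiho-tang by -0.40 ± 0.092 (adjusted p = 0.0165) and from zizyphus by -0.33 ± 0.082 (adjusted p = 0.0199). TP53I3 differed between Yijin-tang and Soshiho-tang by -0.42 ± 0.088 (adjusted p = 0.00507). No member was called between liriope and longan, liriope and zizyphus, schisandra and longan, or longan and zizyphus. In the other pairs the members called numbered 1 to 4 of 30. Of all genes, 0.88% were called between Yijin-tang and Soshiho-tang, 2.85% between Yijin-tang and liriope, 0.957% between Yijin-tang and schisandra, 2.01% between Yijin-tang and longan and 1.44% between Yijin-tang and zizyphus. Between Soshiho-tang and liriope, longan, zizyphus and schisandra 3.1%, 2.04%, 2.02% and 1.26% were called. Schisandra gave 4.11% against liriope, with 3 members called, and 1.33% against zizyphus, with 1 member called. Not all of these members are named here. PLK3 differed between liriope and schisandra by -0.59 ± 0.13 (adjusted p = 0.00327).

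Comparisons with vehicle share the same 3 control libraries, and vehicle had its own set of sample codes, so code set and treatment cannot be told apart. At high dose the members called higher and lower were 1 and 8 in Yijin-tang, 2 and 2 in Soshiho-tang, 1 and 2 in liriope, 4 and 5 in schisandra, 5 and 3 in longan and 2 and 1 in zizyphus. Of all genes 23.4%, 21.8%, 16.8%, 22.1%, 19.6% and 16.9% were called. The shares called higher were 11.1%, 10.6%, 8.56%, 10.8%, 9.64% and 8.15%, and those called lower 12.2%, 11.1%, 8.21%, 11.2%, 9.98% and 8.73%. The higher share of mitochondrial counts in vehicle moves with these comparisons, and its part in them was not tested. Scaling by library size alone shifted every gene against vehicle by up to 0.139 on the log2 scale. It turned the member calls, higher and lower, into 5 and 2 in Yijin-tang, 6 and 0 in Soshiho-tang, 6 and 1 in liriope, 7 and 0 in schisandra, 12 and 0 in longan and 8 and 0 in zizyphus.

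At low and medium dose the shares of all genes called against vehicle were 15.2% and 16.7% in Yijin-tang, 11.9% and 10.2% in Soshiho-tang and 16.6% and 18.3% in liriope. They were 21.5% and 20.1% in schisandra, 20.1% and 19.2% in longan and 16.5% and 16.7% in zizyphus. CDKN1A lay below vehicle, whose libraries read 91.6, 98.7 and 93.0 CPM, in most extract groups, and already at low dose in several. It was called lower in 12 of the 18 dose groups and in 7 with library-size scaling, which also called it higher in 1 (high-dose Soshiho-tang, 0.26 on the log2 scale). At low dose its log2 change against vehicle was -0.38 ± 0.062 in schisandra (adjusted p = 1.61e-05) and -0.36 ± 0.070 in Soshiho-tang (adjusted p = 0.000472). At high-dose Soshiho-tang it was 0.17 ± 0.068 (adjusted p = 0.0680), whereas its low dose lay below vehicle. Longan at high dose differed from vehicle by -0.07 ± 0.061 (adjusted p = 0.473). TP53I3 lay above its vehicle level of 22.1, 25.3 and 23.1 CPM in all 18 dose groups and was called higher in 13, or in 16 with library-size scaling. PLK3 was called higher in 8 of 18, and in 15 with library-size scaling. CYFIP2, called lower in 13, and POLH, the translesion polymerase gene called lower in 9, were called lower in 1 and 2 groups under that scaling. MDM2 was called in none of the 18, or higher in 2 with library-size scaling. BAX was called higher in 4 of 18, AEN in 6 and TNFRSF10B in 6, which became 18, 14 and 16 with that scaling.

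In high-dose aucklandia 11 of the 30 members lay above each of the other 59 libraries and 4 below. How many of all genes do so was not counted, so this is not read as particular to the members. With 1 library per dose there is no test, and intervals cover counting error only. Of the 29 members with at least 5 CPM in a dose, 9 were at least 1.5-fold higher at 280 than at 11.2 µg/mL and 6 at least as much lower. These are 31.0% and 20.7% of the members, against 21.3% and 22.3% of all genes at that minimum. The members' median was -0.04, and that of all genes -0.01, on the scale of log2(CPM + 1). Of the arrest and feedback genes 6 of 8 were higher and 1 lower, with a median of 1.18.

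CDKN1A read 90.5, 129 and 368 CPM at the low, medium and high doses of aucklandia (95% exact Poisson interval at high dose 360 to 376). The high-dose library was 4.04-fold above low dose, as are all folds here on the CPM + 1 scale, and above each of the other 59 libraries. PLK2, a kinase related to PLK3, read 10.5, 7.78 and 45.6 CPM, 4.06-fold higher at the high dose on that scale. PLK3 read 12.0, 13.4 and 51.1 CPM, a 4.00-fold difference on that scale. GADD45A, a growth arrest and damage gene, read 24.5, 32.1 and 77.9 CPM. MDM2 read 222, 249.4 and 342 CPM, a 1.54-fold difference on that scale, and PPM1D, the phosphatase that turns p53 signalling off, read 41.8, 38.3 and 70.3 CPM. CCNG1 went the other way, from 165 and 145 to 81.9 CPM, below all replicated libraries. BTG2, an antiproliferative gene, stayed within 1.5-fold at 20.3, 25.2 and 17.96 CPM.

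The other roles were mixed in aucklandia. BBC3, which encodes the BH3-only protein PUMA, read 9.89, 12.1 and 25.4 CPM, and TP53INP1 read 28.3, 25.6 and 47.6 CPM. PMAIP1 was under the minimum but its counts gave 0.912, 1.20 and 4.89 CPM. BAX read 104, 109 and 77.1 CPM, and FAS, a death receptor gene, 14.0, 17.4 and 18.1 CPM, both within 1.5-fold. Lower members were SPATA18 with 21.1, 23.6 and 11.3 CPM and CYFIP2 with 69.6, 70.0 and 28.99 CPM. Among repair genes DDB2 read 45.1, 47.0 and 25.7 CPM and XPC, which recognises DNA lesions, 34.7, 38.3 and 21.2 CPM. FDXR, the mitochondrial ferredoxin reductase gene, read 92.5, 124 and 42.3 CPM, while TIGAR, which lowers glycolytic flux, read 14.9, 14.9 and 24.4 CPM. Of the 9 higher members 6 read higher at each step through the 3 doses, and of the 6 lower members only CCNG1 read lower at each step. The order of the doses was not counted over all genes.

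**Figure D4:**
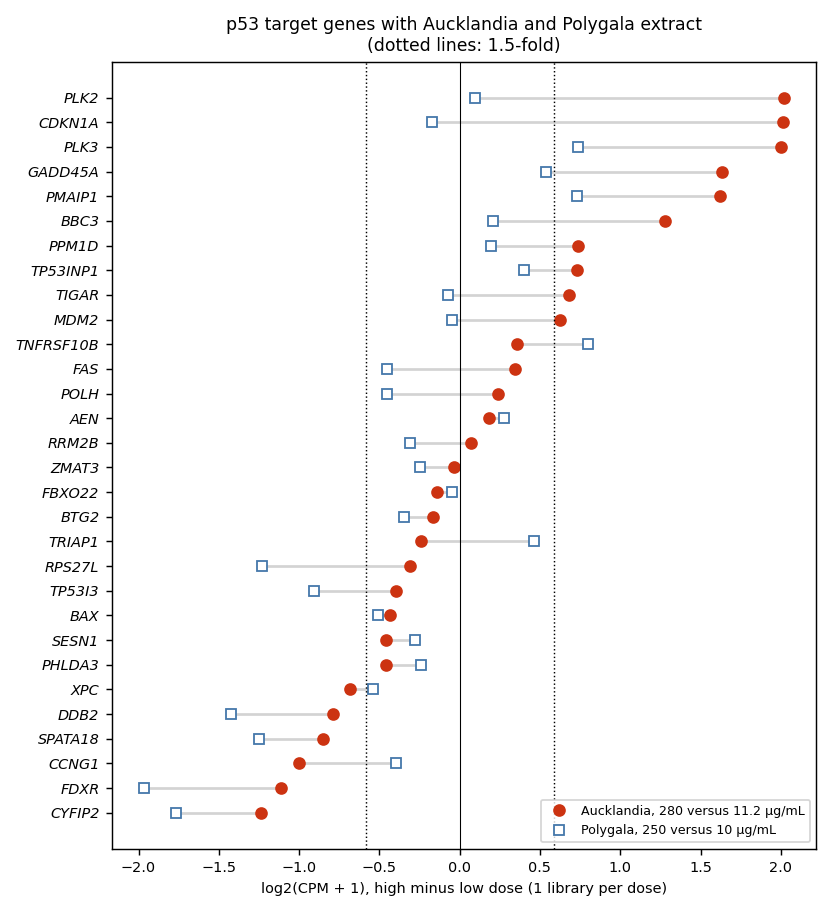
Difference between high and low dose on the scale of log2(CPM + 1) for 30 p53 target genes, with 1 library per dose, for aucklandia (filled circles) and polygala (open squares); dotted lines mark 1.5-fold. CDKN1A lies at 2.01 in aucklandia and -0.17 in polygala, whereas FDXR and CYFIP2 lie far to the left in both.

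In polygala the balance of members depended on the scaling. At 250 against 10 µg/mL 2 of 29 members were at least 1.5-fold higher and 6 lower, which is 6.90% and 20.7%, against 17.5% and 20.9% of all genes. The members' median was -0.25, and that of all genes 0.02. With library-size scaling every gene of this comparison shifts by 0.236. Then 5 members were higher and 6 lower, against 30.1% and 14.2% of all genes, and the median was -0.01 against 0.26 for all genes. CDKN1A read 94.3, 83.5 and 83.6 CPM and MDM2 225, 244 and 218 CPM, both inside the range of the 54 replicated libraries. TNFRSF10B read 165, 184 and 287 CPM, above each of the other 59 libraries, and PLK3 read 13.1, 11.2 and 22.6 CPM. GADD45A read 28.9, 27.8 and 42.5 CPM and CCNG1 155, 168 and 118 CPM, both within 1.5-fold. FDXR, whose promoter run is printed above, read 83.4, 75.7 and 20.6 CPM, 3.91-fold lower at the high dose on the CPM + 1 scale. CYFIP2 read 79.3, 62.0 and 22.6 CPM, DDB2 45.4, 38.9 and 16.3 CPM and RPS27L 84.9, 70.3 and 35.6 CPM. SPATA18 read 18.99, 19.6 and 7.41 CPM and TP53I3 23.6, 24.3 and 12.1 CPM. The 6 lower members lay below each of the other 59 libraries, a count that was not made over all genes. In both extracts PLK3 was past 1.5-fold higher, and DDB2, FDXR, SPATA18 and CYFIP2 were past 1.5-fold lower. These 4 are 4 of the 6 lower members in either extract, and PLK3 is 1 of 2 higher members in polygala and 1 of 9 in aucklandia, which share no library. Of 10956 genes at the minimum in both, 6.42% were past 1.5-fold higher in both and 8.81% past it lower in both.

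**Figure D5:**
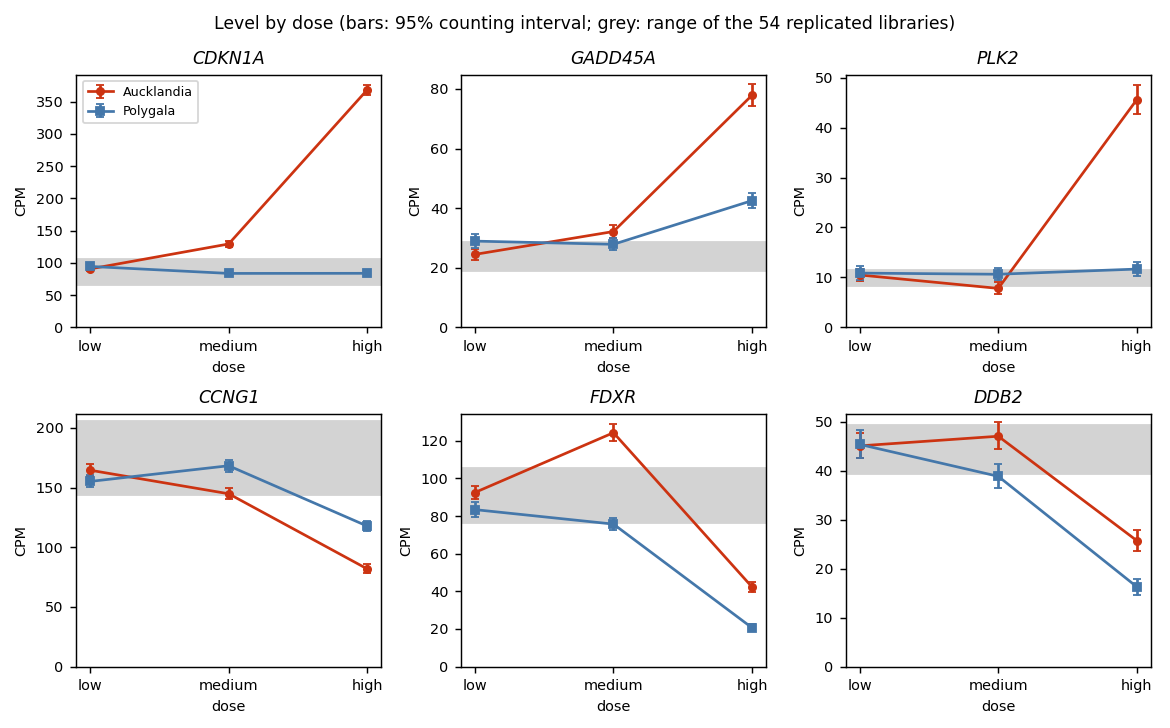
CPM of 6 p53 target genes at the low, medium and high doses of aucklandia (circles) and polygala (squares), with bars for the 95% counting interval and a grey band for the range of the 54 replicated libraries. CDKN1A, GADD45A and PLK2 climb out of the band in high-dose aucklandia, as do GADD45A and, narrowly, PLK2 in high-dose polygala. CCNG1, DDB2 and FDXR fall below it at the high dose of both extracts.

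The summed level of the 10 hepatocyte markers was lower at the top dose of these 2 extracts, going from 43640 to 21294 CPM in aucklandia and from 45656 to 18486 CPM in polygala, with 47647 to 52023 CPM in vehicle. Whether these differences have a part in the members' values was not tested. In bulk RNA, fewer cells of a state and less RNA per cell cannot be told apart.

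Around the 30 genes, 4 further lists were counted at the level of RNA. Their counts stand beside the shares of all genes, higher and lower, of 3.92% and 3.4% in schisandra, 2.81% and 2.27% in Soshiho-tang and 3.78% and 4.01% in Yijin-tang. For 1.5-fold differences these shares were 21.3% and 22.3% in aucklandia and 17.5% and 20.9% in polygala. Of 24 p53 regulators, 23 were tested. In schisandra 1 rose and 2 fell, led by PPP1R13L, an inhibitor of p53 also called iASPP, with 0.53 ± 0.089 (adjusted p = 4.1e-05). Its mean was 7.23 CPM at low dose and 10.4 at high dose of schisandra. The vehicle mean of 9.72 CPM lay between them, nearer to the high dose. In Yijin-tang 2 fell, the p53 relative TP73 (-0.31 ± 0.093, adjusted p = 0.0289) and the acetyltransferase gene KAT5 (-0.19 ± 0.061, adjusted p = 0.0440). In aucklandia, where 22 regulators reached the minimum, 3 were higher and 6 lower. In polygala 3 of 23 were higher and 4 lower. MDM4, the partner of MDM2, read 34.5, 27.9 and 66.6 CPM in aucklandia and 33.2, 42.1 and 61.8 CPM in polygala. MDM4 and the genes named below for these 2 extracts were picked after their values were seen. Other regulators differed by more than MDM4. From low to high dose of aucklandia HIPK2 went from 324 to 137 CPM and TP73 from 6.50 to 1.75 CPM. In polygala PRKDC went from 548 to 223 CPM and SIRT1 from 23.3 to 46.7 CPM.

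Further p53 targets outside the 30 included genes with changes past 1 on the log2 scale. Of 48 tested, 10 rose and 2 fell in schisandra, 5 rose and 2 fell in Soshiho-tang, and 3 rose and 2 fell in Yijin-tang. GDF15, a secreted stress cytokine, rose in all 3, by 1.07 ± 0.084 in schisandra, 1.22 ± 0.10 in Soshiho-tang and 0.70 ± 0.084 in Yijin-tang. The adjusted p values were 6.91e-13, 5.42e-12 and 4.13e-08. ABHD4, a lipid hydrolase gene, rose by 0.36 ± 0.054 in schisandra (adjusted p = 6.43e-06) and by 0.68 ± 0.067 in Soshiho-tang (adjusted p = 3.85e-10). In Yijin-tang PERP, a desmosomal and apoptosis gene, rose by 0.30 ± 0.047 (adjusted p = 9.44e-06). DRAM1, a lysosomal autophagy gene, fell there by 0.22 on the log2 scale (adjusted p = 0.00641). At the top dose of aucklandia GDF15 reached 851 CPM from 110, and SFN, the 14-3-3 sigma gene, 226 CPM from 14.1. Of 45 list genes at the minimum 16 were higher and 7 lower there. In polygala GDF15 went from 136 to 578 CPM, with 12 of 44 higher and 11 lower.

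The cell cycle list holds genes that p53 is known to shut down through p21 and the DREAM repressor. Of 32 tested, 0 rose and 10 fell in Soshiho-tang, with a median of -0.18, and TPX2, a spindle factor gene, fell by 0.33 on the log2 scale (adjusted p = 6.86e-06). In schisandra 2 rose and 8 fell, with CCNB1, cyclin B1, down by 0.22 (adjusted p = 0.000336). In Yijin-tang 1 rose and 0 fell. In aucklandia 1 of 32 was higher and 18 lower, with a median of -0.77. In polygala 3 were higher and 13 lower, with a median of -0.46. A relation of these genes to CDKN1A was not tested.

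Genes of the ATF4 and CHOP stress response, which share SESN2 with the list of further targets, were also counted. Of 17 tested, 5 rose and 0 fell in Soshiho-tang and 8 rose and 1 fell in schisandra. SLC7A11, the cystine transporter gene, rose by 0.79 ± 0.098 in Soshiho-tang (adjusted p = 9.41e-08), and DDIT4, an inhibitor of mTORC1 signalling, by 0.77 ± 0.10 in schisandra (adjusted p = 4.48e-07). In Yijin-tang 1 rose and 4 fell. In aucklandia 12 of 17 were higher and 2 lower, with a median of 1.10, and PPP1R15A, the phosphatase subunit GADD34, went from 17.7 to 248.8 CPM. In polygala 2 of 16 were higher and 4 lower, with a median of -0.09. The part of this response in the members' values was not tested.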

How the data were processed

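RNA from 60 HepG2 libraries was sequenced as paired reads. Per the submitters' processing notes the authors used FastQC 0.11.9, Trim Galore 0.6.5, STAR 2.7.3a and RSEM 1.3.3 on GRCh38; the annotation release is not given in the sources used here. The deposited values are expected counts per gene (10.4% carry a fraction), rounded here to whole counts. The library kit is directional; whether counting used strand is not stated, and exons of 18 of the 30 members overlap another gene in GENCODE 29, so overlapping reads may be assigned uncertainly.

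Quasi-likelihood tests (edgeR 4.0.16, R 4.3.3) used trimmed mean scaling, the default expression filter and all 54 libraries of the 19 replicated groups, with Benjamini-Hochberg adjustment over 16924 genes in each comparison and 0.05 as threshold. The script was tested on simulated data. CPM were scaled over all 60 libraries. Aucklandia and polygala were described on log2(CPM + 1), with a minimum of 5 CPM in 1 dose, past 1.5-fold. Members named in full passed high versus low dose in an extract and kept that sign against vehicle, with CDKN1A and MDM2 always given. From each wider list up to 3 genes with the smallest p per extract were named. The members and lists were chosen with earlier results of these data known. Alternatives were library-size scaling, no filter, DESeq2 1.42.0, an extract's own libraries with vehicle, replicate blocks, leaving out libraries, and, for aucklandia and polygala, 2-fold and 0.5 CPM added. Library-size scaling at low and medium dose against vehicle was added after seeing the data. The positive control of the series text is not analysed here, and 1 gene of the regulator list is not reported here on its own.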

Additional observations from a re-analysis of the deposited data

Results flagged for a closer look

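For 5 p53 targets the change from low to high dose differed between the 6 replicated extracts, by edgeR's joint test of the differences. CDKN1A had an adjusted p of 4.29e-05, with log2 changes from -0.11 in liriope to 0.53 in Soshiho-tang. DDB2 had 0.00124, with -0.29 in Yijin-tang and 0.02 in longan at the ends. SPATA18 had 0.00259, from -0.26 in Yijin-tang to 0.14 in Soshiho-tang. TP53I3 had 0.0071, from -0.18 in Yijin-tang to 0.24 in Soshiho-tang. PLK3 had 0.0382, from -0.16 in liriope to 0.43 in schisandra. The PLK3 difference was lost without 1 of 11 libraries (adjusted p up to 0.101), without the expression filter (0.0673) and without the 2 farthest libraries (0.0722). Without the filter those of DDB2 (0.189) and TP53I3 (0.0929) were lost as well.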

How the results depend on the processing

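Of the 12 calls of high against low dose, 3 held under all alternatives run: DDB2 in Yijin-tang, CDKN1A in Soshiho-tang and PLK3 in schisandra. Of the 36 calls of high dose against vehicle, 9 held under all of them. No called gene changed sign, but with library-size scaling the balance of calls against vehicle at high dose turned towards higher in each extract. Counts of called members that moved by over 1.5 times were, without the filter, 3 in Yijin-tang, 1 in Soshiho-tang and 1 in liriope for high against low dose, 1 in schisandra for medium against low dose, and 2 in Soshiho-tang and 5 in longan against vehicle. With library-size scaling they were 1 in Soshiho-tang against low dose, and 7 in liriope and 8 in zizyphus against vehicle. With own libraries and vehicle only they were 1 in Soshiho-tang and 2 in schisandra against low dose, and 4 in schisandra against vehicle. Without the 2 farthest libraries the count in schisandra was 3 against low dose. A 2-fold limit left 5 members in polygala and 7 in aucklandia. Leaving out 1 library gave 2 to 4 calls in Yijin-tang, 1 to 2 in Soshiho-tang, 2 to 7 in schisandra and 0 to 0 in liriope, longan and zizyphus against low dose. Against vehicle it gave 6 to 10, 2 to 4, 3 to 8, 2 to 5, 3 to 7 and 1 to 4, and for the joint test 4 to 5. Medium against low dose stayed at 0 to 0 in these fits. The cause of these moves was not tested. The joint calls of DDB2, TP53I3 and PLK3 were lost without the filter (adjusted p = 0.189, 0.0929 and 0.0673), and that of PLK3 without the 2 farthest libraries (0.0722).

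With library-size scaling 77.4% to 88.4% of all called genes were higher than vehicle at high dose, against 47.7% to 51.0%. Against low dose the higher share moved from 48.6% to 35.9% in Yijin-tang, from 55.3% to 44.1% in Soshiho-tang and from 53.5% to 29.1% in schisandra. The replicate block left the high against low counts at 5, 2, 0, 5, 0 and 0, and took liriope against vehicle from 3 to 4. Same-numbered libraries of a code set deviated together only weakly (median r = 0.121 over 123 pairs, from -0.659 to 0.691), so the numbers were not taken as pairs. Libraries of a set with other numbers had a median r of -0.0604 over 240 pairs. A replicate block within code set raised the calls over all genes from 1318 to 1595 in Yijin-tang. In Soshiho-tang they went from 860 to 1037 and in schisandra from 1240 to 1620, all for high against low dose. Of all genes, calls of high against low dose moved in number from 5 to 207 in liriope, 3 to 63 in longan and 6 to 79 in zizyphus without the filter, from 860 to 454 in Soshiho-tang without 1 library, and from 1240 to 731 in schisandra without the 2 farthest libraries and to 360 with own libraries and vehicle only. PMAIP1, near 1 CPM, is limited by depth.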
